A study of Rattus norvegicus with 15 samples.

Results

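The miR-23, miR-24 and miR-27 family comprises 5 mature rat microRNAs (miRNAs) on the array, miR-23a, miR-23b, miR-24, miR-27a and miR-27b, which were taken by name from 350 miRNAs. Their levels were followed in rat liver on 15 single-colour arrays, and every array carried a pool of RNA from 4 animals. The labels state no strain or age. The rats had been fed ethanol chronically (EtOH) or pair-fed a carbohydrate control diet (CHO). Liver was sampled at partial hepatectomy (PHx), the surgical removal of part of the liver, in 3 EtOH and 4 CHO pools. It was sampled again after PHx in 1 pool per diet at each of 1, 6, 12 and 24 h. All animals underwent PHx, and 7 of the 8 pools had an array before and an array after it from the same 4 animals. For the EtOH pool of 24 h, an array from before PHx was not analysed here.

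The genome holds these miRNAs in paired clusters, each transcribed as a single primary transcript that is cut into a miR-23, a miR-27 and a miR-24. A miRNA binds target mRNAs mainly through its seed, bases 2 to 8, and lowers their stability or translation. In the liver miR-27 is known for restraining regulators of lipid metabolism, miR-23b for targeting the Smad mediators of TGF-beta signalling, and miR-24 for targeting cell cycle genes. The clusters are also widely studied in vessel growth.

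The sequences show why the paralogues are compared as pairs. All 5 members matched an entry in RefSeq's rat miRNAs (build GRCr8), and they are printed 5′ to 3′ with the seed in capitals:
miR-23a: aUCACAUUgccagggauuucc
miR-23b: aUCACAUUgccagggauuacc
miR-27a: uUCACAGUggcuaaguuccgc
miR-27b: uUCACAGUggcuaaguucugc
miR-24: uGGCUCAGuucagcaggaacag
miR-23a and miR-23b share their seed and differ at 1 base (U19A, counted from the 5′ end of miR-23a). miR-27a and miR-27b likewise share theirs and differ at 1 base (C19U, counted from the 5′ end of miR-27a). No other mature rat miRNA in the table had either of these seeds at bases 2 to 8, although miR-128 holds the miR-27 seed letters within its first 8 bases. miR-24 has the same mature sequence at both loci, so its signal is the sum of both clusters. Whether each probe also binds the paralogue that differs by 1 base was not tested.

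The a cluster lies on the minus strand at chr19:40859455-40859843, where its 3 hairpins span 389 bases in no annotated protein-coding gene. The mature miR-23a lies at chr19:40859778-40859798, miR-27a at chr19:40859614-40859634 and the cluster's copy of miR-24 at chr19:40859481-40859502. The b cluster lies on the minus strand at chr17:1818669-1819482, a span of 814 bases within the annotated bounds of the peptidase gene Aopep and overlapped by Fancc, a Fanconi anaemia gene. There miR-23b lies at chr17:1819405-1819425, miR-27b at chr17:1819163-1819183 and the other copy of miR-24 at chr17:1818672-1818693.

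The signal at the 75th percentile of probes lay between 236.5 and 515.5 over the arrays before scaling. It was lowest on EtOH before PHx replicate 3, where spots of 1 probe also scattered most, at a coefficient of variation whose median was 36.6%, where the remaining arrays had 6.75% to 8.62%. This array is the sample before PHx of the EtOH 12 h pool, and some results that rest on it are also given without it. The arrays lay on 2 slides, with the 1 h and 6 h pools on slide 1 and the 12 h and 24 h pools on slide 2, so slide and time of pool cannot be told apart. The 1 h and 6 h pools of each diet shared 1 animal. The hepatocyte markers miR-122, miR-192 and miR-194 summed to a scaled signal of 35965 to 46363 on the 15 arrays, and none of the 3 was called in any contrast of the main model.

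All 5 members were well above background on 15 of 15 arrays, whereas the opposite strands of their hairpins were not. miR-23a*, miR-24-1*, miR-24-2* and miR-27a* were each detected on 0 of 15 arrays. miR-23b* and miR-27b* were not analysed here. The median scaled signal was 755 for miR-23a, 922 for miR-23b, 449 for miR-24, 195 for miR-27a and 529 for miR-27b. These medians come from different probes and give no order of abundance.

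4 members varied little over all 15 arrays, across both diets and all times. The SD of log2 scaled signal was 0.0909 for miR-27b, 0.101 for miR-24, 0.104 for miR-23a and 0.112 for miR-23b, against a median of 0.197 over the 134 miRNAs tested. Of these 134, 7 varied less than miR-27b and 14 less than miR-23b. miR-27a was wider, with an SD of 0.192, and 60 miRNAs varied less. Spread narrows with brightness on these arrays, so each member was also set against the miRNAs within 1 log2 unit of its mean signal. Among these, 0 of 24 varied less than miR-27b, 2 of 24 less than miR-24, 3 of 17 less than miR-23a and 4 of 15 less than miR-23b. For miR-27a, 15 of 24 varied less.

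**Figure D1:**
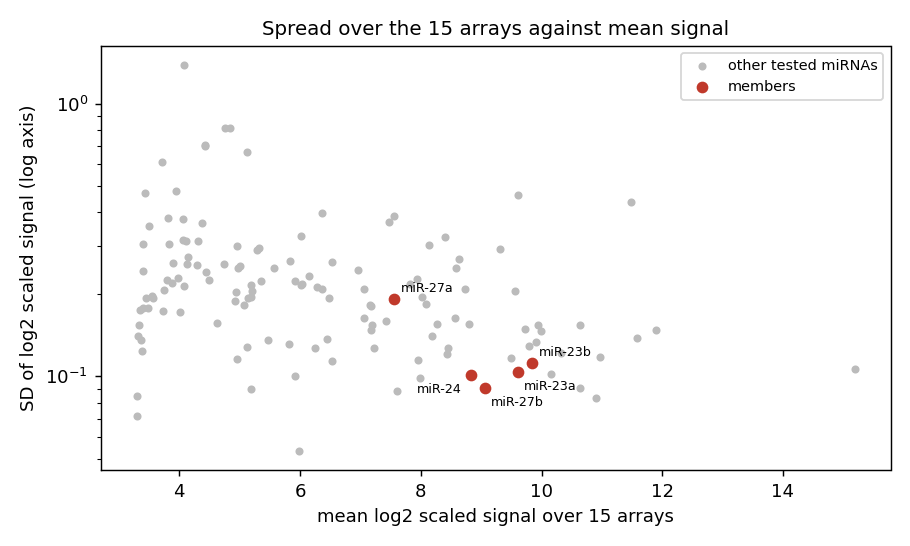
SD of log2 scaled signal over the 15 arrays (vertical, log axis) against mean log2 scaled signal (horizontal) for the 134 tested miRNAs, 1 point each. miR-23a, miR-23b, miR-24 and miR-27b lie at SDs of 0.0909 to 0.112, and miR-27a lies higher at 0.192.

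Diet before PHx was compared to see how the members stood under chronic ethanol without surgery. None of the 5 was called by limma at an adjusted p under 0.05, where 15.7% of the 134 tested miRNAs were. None had an unadjusted limma p under 0.05 either, where 35 of the 134 had. The median difference over the members, EtOH minus CHO, was -0.03 on the log2 scale, against -0.08 over all tested miRNAs.

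miR-23a, a product of the a cluster, read 729, 710 and 865 in scaled signal on the 3 EtOH arrays and 750, 753, 891 and 740 on the 4 CHO arrays. The diets overlapped, and the high values of both came from the 12 h pools. The means were 768 ± 84.4 (SD, n = 3) and 783 ± 72.0 (SD, n = 4), and the log2 difference was -0.03 (95% CI -0.24 to 0.18). Without EtOH replicate 3 this difference was -0.12. miR-23b, its b paralogue, read 974, 970 and 860 in EtOH and 923, 879, 1014.8 and 913 in CHO. Its means, 935 ± 64.2 (SD, n = 3) and 932 ± 58.1 (SD, n = 4), differed by 0.003 on the log2 scale (95% CI -0.17 to 0.18), and by 0.06 without EtOH replicate 3.

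miR-24, made from both clusters, read 467, 441 and 560 in EtOH and 454, 449, 468.5 and 428 in CHO. Only EtOH replicate 3, the array with scattered spots, stood above all CHO arrays. The log2 difference was 0.11 (95% CI -0.08 to 0.31), with an adjusted p of 0.436 from limma. Without EtOH replicate 3 this difference was 0.01.

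miR-27a read 159.9, 148 and 218 in EtOH and 182, 195, 226 and 184 in CHO. The first 2 EtOH pools lay below all 4 CHO pools and replicate 3 lay among them. The means were 175 ± 37.2 (SD, n = 3) and 197 ± 20.5 (SD, n = 4), and the log2 difference was -0.18 (95% CI -0.47 to 0.11), with a limma adjusted p of 0.429. Without EtOH replicate 3 the difference was -0.35 and passed, with an adjusted p of 0.0373, in a fit that called 25.4% of the tested miRNAs. With no scaling at all, 4 members passed (all but miR-24), each lower in EtOH, where 56.7% of tested miRNAs passed. miR-27b read 570, 526 and 531.5 in EtOH and 577, 543, 615 and 558 in CHO, with overlap and a log2 difference of -0.08 (95% CI -0.24 to 0.08).

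**Figure D2:**
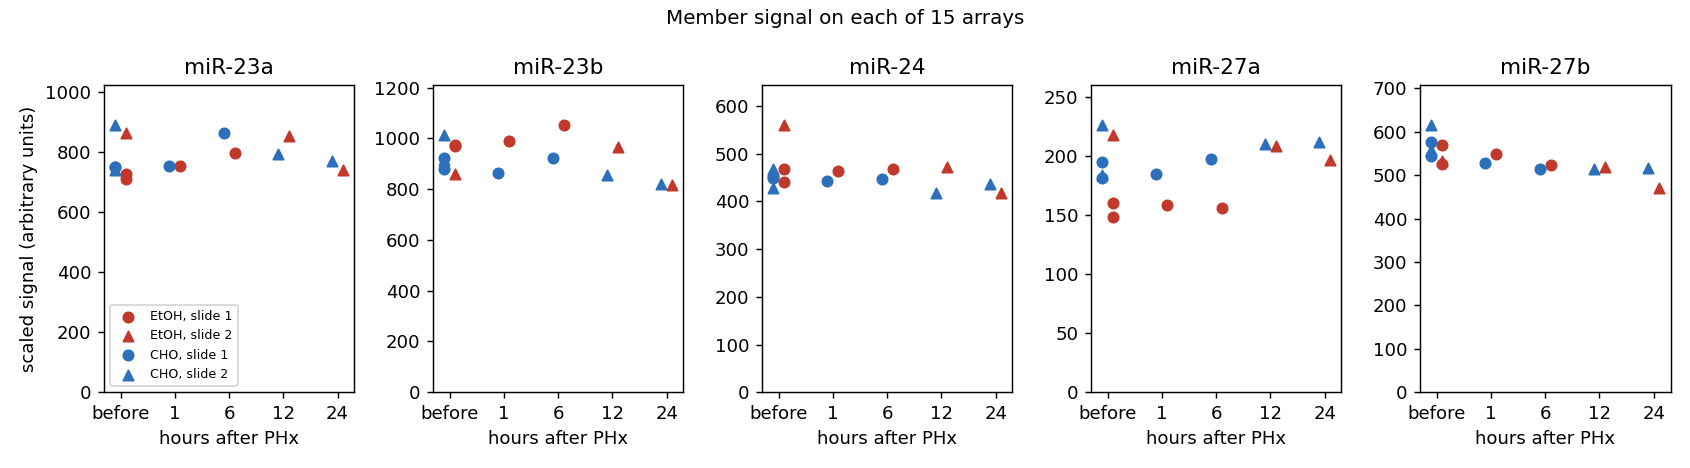
Scaled signal of each member (vertical, arbitrary units, from 0) on each of the 15 arrays before and at 1, 6, 12 and 24 h after PHx (horizontal). Red points are EtOH pools and blue points CHO pools, circles slide 1 and triangles slide 2. The EtOH circles of miR-27a lie at 148 to 159.9, below the CHO circles at 182 to 197.

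After PHx the diets were compared over the 4 times. None of the 5 members was called, against 7.46% of tested miRNAs. None had an unadjusted limma p under 0.05, where 41 of the 134 had. miR-23b read 989, 1052.6, 967 and 818 in EtOH and 865, 922, 855 and 820 in CHO at 1, 6, 12 and 24 h. EtOH was the higher at the first 3 times and level at 24 h. The log2 difference was 0.14 (95% CI -0.02 to 0.30, limma adjusted p 0.212). miR-27a read 158, 155.7, 208 and 196 in EtOH against 185, 197, 210.2 and 212 in CHO. EtOH was lower by a wide margin at 1 and 6 h and by little at 12 and 24 h, with a log2 difference of -0.17 (95% CI -0.44 to 0.09, adjusted p 0.363). With scaling to the 75th percentile of all probes this difference had the opposite sign, 0.08, in a fit where the median of all miRNAs moved by 0.24.

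The other members were close to level between the diets after PHx. miR-23a differed by -0.02 (95% CI -0.21 to 0.17), miR-24 by 0.06 (95% CI -0.12 to 0.24) and miR-27b by -0.01 (95% CI -0.16 to 0.14). The change of the diet difference from before to after PHx was called for 0 members and for 0% of tested miRNAs. Without adjustment, 9 of the 134 but no member had a limma p under 0.05. Its largest size among members was 0.14 for miR-23b (95% CI -0.10 to 0.37).

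miR-27a and miR-23b separated the diets on slide 1, in opposite directions. On that slide, which holds the 1 h and 6 h pools, the 4 EtOH arrays of miR-27a read 148 to 159.9 and the 4 CHO arrays 182 to 197. The means were 155 ± 5.17 (SD, n = 4) and 189.6 ± 7.60 (SD, n = 4). miR-23b went the other way there, at 970 to 1052.6 in EtOH and 865 to 923 in CHO, with means of 996 ± 38.5 and 897 ± 29.6 (SD, n = 4 each). The diets did not overlap for either member, which was so for 33.6% of tested miRNAs on that slide. On slide 2 no member separated by diet, against 9.7% of tested miRNAs. There the EtOH arrays of miR-27a read 207 ± 10.8 (SD, n = 3), level with 208 ± 17.5 (SD, n = 4) for CHO. Before PHx, over both slides, 0 members separated by diet against 25.4% of tested miRNAs.

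Fitted within slide 1 alone, the diet difference of miR-27a before PHx was -0.29 (SE 0.0785, limma adjusted p 0.0441), in a fit that called 27.6% of tested miRNAs. After PHx it was -0.28 (adjusted p 0.0508). The 8 slide 1 arrays hold only 4 pools, each measured before and after PHx, so these p-values treat repeat measures of a pool as separate. On pool means, where a limma fit kept the pools as the unit, miR-27a differed by -0.29 on slide 1 (SE 0.0970, adjusted p 0.118), and miR-23b by 0.15 (SE 0.0929, adjusted p 0.319). That fit called 0.746% of tested miRNAs. On slide 2 the same fit gave -0.02 for miR-27a and -0.06 for miR-23b. The difference between slides was -0.26 for miR-27a (SE 0.137, adjusted p 0.698) and 0.21 for miR-23b (SE 0.131, adjusted p 0.698), so a differing diet effect was not shown, and 0% of tested miRNAs were called. Slide and pool means were compared after the values had been seen.

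Summed signals of cell type markers were also compared between the diets on slide 1, where 33.6% of tested miRNAs separated by diet. The endothelial pair miR-126 and miR-126* summed to 1032 to 1082 in EtOH and 1209.9 to 1293 in CHO, without overlap. The 5 stellate and mesenchymal markers, all detected, summed to 513 to 587 in EtOH and 619 to 689 in CHO, also without overlap. Before PHx over both slides, miR-145 of that list differed by 0.24 (EtOH minus CHO), where the list's median was -0.24. The 3 hepatocyte markers summed to 40676 to 46363 in EtOH and 36651 to 39605 in CHO, higher in EtOH. Each of these sums comes mostly from its brightest miRNA, miR-126, miR-143 or miR-122. Their median scaled signals over the 15 arrays were 1171, 375 and 37422. Sums overlapped for 5 leukocyte markers (303 to 373 against 334 to 451), 2 erythroid markers (629 to 1209.9 against 528 to 1025) and 5 epithelial markers (71.0 to 83.9 against 81.9 to 102). Of these, 1 leukocyte and 2 epithelial markers were detected on no array. Tested singly before PHx over both slides, 2 of 3 epithelial and 1 of 4 leukocyte markers were called lower in EtOH by limma. No endothelial, stellate, erythroid or hepatocyte marker was called there, against 15.7% of tested miRNAs. The part of these cell types in the differences of miR-27a and miR-23b was not tested. In whole liver, fewer cells of a type and less of a miRNA per cell cannot be told apart.

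The comparisons of each time with the state before PHx ask how the members followed regeneration. No member was called at any time. The background was 0% of tested miRNAs at 1 h, 4.48% at 6 h, 5.97% at 12 h, 13.4% at 24 h and 6.72% for the mean over times. At 1 h, 4 of the 134 but no member had an unadjusted limma p under 0.05. The median change over members was -0.04 at 1 h, -0.03 at 6 h, -0.04 at 12 h and -0.13 at 24 h. Over all tested miRNAs it was 0.001, 0.07, 0.06 and 0.02.

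At 24 h, miR-23b and miR-27b of the b cluster were the only members with an unadjusted limma p under 0.05. miR-23b was 818 in EtOH and 820 in CHO at 24 h, its lowest values over the 15 arrays. Its change at 24 h was -0.19 (SE 0.0825, limma p 0.0448, adjusted p 0.207). miR-27b was 469 in EtOH at 24 h, its lowest value, and 516 in CHO. Its change was -0.18 (SE 0.0751, limma p 0.0359, adjusted p 0.181). Neither passed the adjustment, and 30 of the 134 tested miRNAs had an unadjusted limma p under 0.05 at 24 h. Against its own animals before PHx, the CHO 24 h pool changed by -0.15 for miR-23b and by -0.11 for miR-27b. The EtOH 24 h pool has no such comparison here. Adding slide as a block gave 24 h changes of -0.18 for miR-23b (limma p 0.0954) and -0.19 for miR-27b (limma p 0.0546). With the pool as a block, the fitted 24 h changes, averaged over diets, were -0.06 for miR-23b and -0.05 for miR-27b, and they take the missing EtOH change from the diet difference in the other pools.

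miR-27b was lower after PHx than before in 7 of 7 pools. No other member had 1 sign in even 6 of 7. Of tested miRNAs, 29.1% had 1 sign in at least 6 pools and 8.21% in all 7. In the CHO pools its log2 changes were -0.13, -0.08, -0.26 and -0.11 for the 1, 6, 12 and 24 h pools. In the EtOH pools they were -0.06, -0.01 and -0.04 for the 1, 6 and 12 h pools. Each EtOH change was smaller than each CHO change, a separation held by 7.46% of tested miRNAs. The order of the EtOH and CHO changes was read off after the values were seen. The fitted mean over times was -0.11 (SE 0.0487, limma p 0.0436, adjusted p 0.234), and without scaling it was 0.01. For the mean over times, 27 of the 134 tested miRNAs had an unadjusted limma p under 0.05.

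For miR-23a, miR-24 and miR-27a the intervals at each time included 0, and their signs varied between pools. miR-27a changed by 0.19 at 12 h (95% CI -0.12 to 0.49) and by 0.15 at 24 h (95% CI -0.15 to 0.45) against all arrays before PHx. With slide as a block these changes were 0.03 and -0.01. Against its own pools the 12 h change of miR-27a was -0.06 in EtOH and -0.11 in CHO. The sign at 12 h thus depended on which arrays before PHx were used. In its own CHO pool at 24 h, miR-27a changed by 0.20. miR-23a changed by 0.10 at 6 h (95% CI -0.11 to 0.32), with own-pool changes of 0.16 in EtOH and 0.20 in CHO. miR-24 changed by -0.13 at 24 h (95% CI -0.33 to 0.07), whereas its own CHO pool changed by 0.03.

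**Figure D3:**
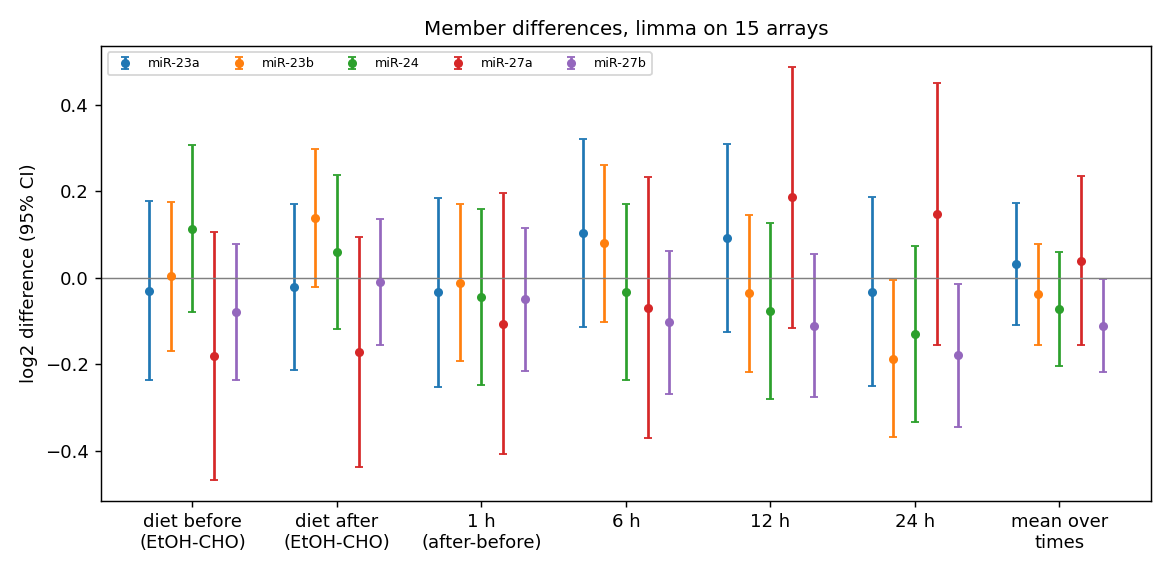
Log2 difference (vertical) of each member with its 95% confidence interval from limma, for the diets (EtOH minus CHO) and for the times minus the state before surgery. The intervals at 24 h for miR-23b and miR-27b and that for miR-27b over all times lie just below 0 before adjustment, and all others include 0.

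The paralogues were compared by the log2 ratio of a to b within each array, in which array scaling cancels. Because the a and b probes differ, only changes of this ratio are informative. 6 comparisons were made, and their exact permutation p-values were adjusted together.

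For the pair that shares the miR-23 seed, the ratio before PHx was -0.42, -0.45 and 0.01 on the EtOH arrays and -0.30, -0.22, -0.19 and -0.30 on the CHO arrays. The 2 EtOH pools of slide 1 lay below all CHO pools and replicate 3 above all. The mean diet difference was -0.03, with a two-sided exact permutation p of 0.914 (smallest possible 0.0571). After PHx the ratio was -0.39, -0.40, -0.18 and -0.14 in EtOH and -0.20, -0.09, -0.10 and -0.09 in CHO at 1, 6, 12 and 24 h. EtOH was lower at 4 of 4 times, with a mean difference of -0.16. The exact sign-flip p of 0.125 is the smallest that 4 pairs allow.

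For the pair that shares the miR-27 seed, the ratio before PHx was -1.83, -1.83 and -1.29 in EtOH and -1.67, -1.48, -1.44 and -1.60 in CHO. Again the 2 EtOH pools of slide 1 lay below all CHO pools and replicate 3 above all. The mean diet difference was -0.10 (exact permutation p 0.514). After PHx it was -1.79, -1.75, -1.32 and -1.26 in EtOH and -1.52, -1.38, -1.29 and -1.29 in CHO. EtOH was lower at 3 of 4 times, with a mean difference of -0.16 (exact sign-flip p 0.375). Both slide 1 EtOH arrays lay lowest.

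From before to after PHx the ratio of a to b was higher in 6 of 7 pools for both families. The miR-27 ratio changed by 0.12 on average (SD 0.108, n = 7 pools), with an exact two-sided sign-flip p of 0.0313 and 0.188 after adjustment over the 6 comparisons. The miR-23 ratio changed by 0.06 (SD 0.126, n = 7 pools), with an exact p of 0.266 and an adjusted p of 0.531. The exception was the EtOH 12 h pool in both families, with changes of -0.19 for miR-23 and -0.03 for miR-27. Without that pool, whose array before PHx had the scattered spots, the changes were 0.10 for miR-23 and 0.14 for miR-27 in 6 of 6 pools. Leaving out the only pool of opposite sign fixed the exact sign-flip p at 0.0313 for each, the smallest that 6 pools allow. It was not adjusted and is no further test.

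The change of the ratio was compared between the diets. The miR-27 ratio changed by 0.15, 0.10, 0.16 and 0.31 in the CHO pools of 1, 6, 12 and 24 h and by 0.04, 0.08 and -0.03 in the EtOH pools of 1, 6 and 12 h. The means were 0.18 ± 0.0915 (SD, n = 4) and 0.03 ± 0.0534 (SD, n = 3). The miR-23 ratio changed by 0.10, 0.13, 0.08 and 0.22 in CHO and by 0.03, 0.05 and -0.19 in EtOH. The diets did not overlap in either family. How many other miRNA pairs separate in this way was not computed. Of single tested miRNAs, 7.46% did, and miR-27b, which enters the miR-27 ratio, was among them. The exact permutation p was 0.0571 for each, the smallest that 3 against 4 allow, so this difference did not reach 0.05, and it was compared after the values were seen. No EtOH pool of 24 h enters it.

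**Figure D4:**
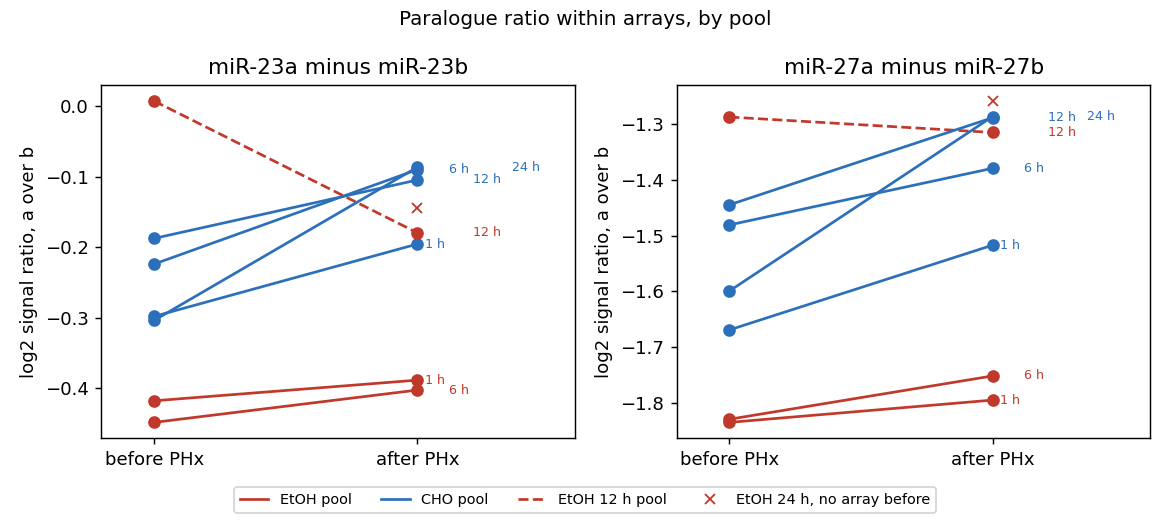
Log2 signal ratio of the a to the b paralogue (vertical) before and after PHx, with a line per pool labelled by its time, in red for EtOH and blue for CHO. The ratio is higher after PHx in 6 of 7 pools for both pairs. The dashed EtOH 12 h pool is the exception, at 0.01 before and -0.18 after PHx for miR-23.

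Each member has 2 probes for the same miRNA, whose ratio gives only part of the error of such a within-array comparison. This probe ratio does not hold the spread between pools in the levels of the paralogues. The SD of that ratio over the 15 arrays was 0.0188 for miR-24, 0.0263 for miR-27b, 0.0329 for miR-23b, 0.0658 for miR-27a and 0.120 for miR-23a. For miR-23a it was 0.0465 without EtOH before PHx replicate 3. From before to after PHx the ratio of a member's own probes changed by -0.08 for miR-23a and -0.06 for miR-27a on average, against 0.02 for miR-23b and 0.01 for miR-27b. The lowest changes were -0.47 for miR-23a and -0.21 for miR-27a. Both came from the EtOH 12 h pool, whose array before PHx had the scattered spots, and all these means include that pool. For comparison, the paralogue ratios changed by 0.06 for miR-23 and 0.12 for miR-27. With the dimmer probe of miR-23a against the brighter probe of miR-23b, the change was 0.14.

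Members of 1 cluster were compared by how steadily their signals kept the same ratio, measured as the SD of their log2 ratio over the 15 arrays. This is a description, and all pairs share their arrays and scaling. The b cluster's miR-23b and miR-27b had an SD of 0.0991, which ranked miR-27b 5th of 133 partners of miR-23b. The a cluster's miR-23a and miR-27a had an SD of 0.145, where miR-23a ranked 7th for miR-27a and miR-27a 27th for miR-23a. The paralogues had an SD of 0.140 for miR-23 and 0.216 for miR-27, and miR-23b with miR-27a, of different clusters, had the widest at 0.267. miR-24 kept the steadiest ratio to miR-23a (0.102), followed by miR-27b (0.115), miR-23b (0.131) and miR-27a (0.205). Without EtOH before PHx replicate 3 that order changed to miR-23b (0.0742), miR-27b (0.0781), miR-23a (0.0955) and miR-27a (0.212).

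The nearest partners outside the family were found by the same measure. For miR-23a they were let-7e (0.0810), miR-139-5p (0.0849) and miR-125a-5p (0.0861). miR-139-5p was detected on 4 of 15 arrays with a median at the floor, so its ratio mostly restates a member's own spread and shows no shared pattern. For miR-23b they were miR-30e* (0.0743), the hepatocyte miRNA miR-122 (0.0863) and miR-30a* (0.0893). For miR-27a they were miR-29c (0.104), miR-10b (0.117) and let-7e (0.133), and for miR-27b miR-195 (0.0802), miR-26a (0.0867) and miR-29a (0.0917). For miR-24 they were miR-30a (0.0582), miR-22* (0.0985) and the same little-detected miR-139-5p (0.104). Without EtOH before PHx replicate 3, miR-22* moved from rank 2 to rank 16 for miR-24 and miR-122 from rank 2 to rank 6 for miR-23b. miR-30a* moved from rank 3 to rank 1 for miR-23b, with an SD of 0.0587. All other partners named here stayed within the first 5 ranks.

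Among other endothelial and angiogenic miRNAs, 5 of 7 listed could be tested. Before PHx 1 of them was lower in EtOH, miR-221, which restrains angiogenic signalling, by -0.34 (SE 0.0825, limma adjusted p 0.0167), and none was higher, where 15.7% of all tested miRNAs were called. It was also the 1 listed miRNA called for the mean over times after PHx, with a rise of 0.41 (SE 0.0562, adjusted p 0.000586). For that mean, 6.72% of all tested miRNAs were called. Of 8 miRNAs tied to liver fat and glucose handling, 6 could be tested. Before PHx none was called. After PHx 2 were higher in EtOH, the p53 target miR-34a by 0.95 (SE 0.248, adjusted p 0.0416) and miR-107, linked to insulin sensitivity, by 0.40 (SE 0.0980, adjusted p 0.0318), where 7.46% of all tested miRNAs were called. miR-128, which holds the miR-27 seed letters, differed by -0.10 before PHx (adjusted p 0.637) and by 0.08 after PHx (adjusted p 0.705).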

How the data were processed

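Spot intensity values in the deposited scanner files are background-subtracted by Agilent Feature Extraction (10.5.1.1 per the file headers, 10.7.3.1 per the submitters' processing notes). Spots marked as outliers were left out (2.38%). Means per probe were divided by an array's 75th percentile, taken over the 185 probes seen on every array, floored at 9.61 and put on a log2 scale. The brightest probe stood for a miRNA. The 134 miRNAs detected on at least 3 arrays were tested with limma 3.58.1 (R 4.3.3) on 15 arrays, in a model of the diet difference before PHx, that after it and the 4 times (8 residual degrees of freedom) and Benjamini-Hochberg adjustment over all 134. This main model has no term for pool or slide. Its p-values and intervals treat the arrays of a pool before and after PHx as separate. Lone pools at a time have no replicate of their own and take the spread of the whole fit, and the number of arrays limits the precision (median SE 0.110 for diet before PHx). Paralogue ratios used exact permutation tests (SciPy 1.17.1).

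The authors' deposited value table, in log2 with its method, scale and centring not given in the sources used here, has column medians of 0.106 to 1.10 and served as an alternative. A normexp correction used the median spot signal, since the files hold no mean signal. Arrays before and after PHx are paired by the animal identifiers in the labels. The fit was tested on simulated data. The text names the 5 members, their passenger strands, the 3 tested miRNAs with the steadiest ratio to each member, and examples from marker and pathway lists. Members and lists were chosen with earlier results of these data known, and pool p-values measure the spread between pools, not animals.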

Additional observations from a re-analysis of the deposited data

Results flagged for a closer look

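miR-23a on the CHO before PHx replicate 3 array stood at 9.80 in log2 scaled signal, far above the other 3 CHO arrays before PHx, with a gap of 0.907 of the group's whole range. It was 1 of 7 groups checked, and chance marks about 1 in 20 groups.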

How the results depend on the processing

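Over 29 settings, 132 of 1130 member values changed sign and 6 were called, all for diet before PHx. Without scaling 4 members were called there, among 56.7% of tested miRNAs, and miR-23b reversed to -0.53, while the median of all miRNAs moved by -0.45. Within slide 1, 1 member was called, miR-27a, among 27.6% of tested miRNAs. Leaving out 1 array gave 0 to 1, with miR-27a called only without EtOH before PHx replicate 3, among 25.4% of tested miRNAs. With the pool as a replicate block, which can be fitted for the times and the change of the diet difference but not for diet itself, no member was called (miR-27b over times -0.08), as without it. That fit has 2 residual degrees of freedom, and the share of all tested miRNAs it called is not given here.

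The diet difference of the miR-27 ratio before PHx reversed to 0.038 with quantile normalization, 0.074 with normexp and 0.00658 with normexp at 1 background value per array, and after PHx to 0.062 with quantile normalization. The log2 change of the miR-27 ratio after PHx no longer had an exact sign-flip p under 0.05 in the following settings. It was 0.085 with quantile normalization (p 0.125), 0.20 with normexp (p 0.375) and 0.016 with the authors' values (p 0.422). Spot medians gave 0.080 (p 0.188) and 1 background value per array gave 0.087 (p 0.172). With 1 pool left out the log2 change ran from 0.083 to 0.14. Its exact p could fall under 0.05 only without the EtOH 12 h pool (log2 change 0.14), the only pool of opposite sign. The log2 change of the miR-23 ratio after PHx had an exact p under 0.05, before adjustment, in the following settings. It was 0.097 with total signal, 0.11 with the mean of probes and 0.084 with spot medians. With the dimmer probe of miR-23a against either probe of miR-23b it was 0.14 and 0.16. With 1 pool left out the miR-23 log2 change ran from 0.035 to 0.10. Here too the exact p could fall under 0.05 only without the EtOH 12 h pool (log2 change 0.10). With 1 array left out, the miR-23 diet difference ran from -0.18 to 0.048 before PHx and, with 1 time left out, from -0.19 to -0.11 after it. For miR-27 it ran from -0.28 to -0.01 and from -0.23 to -0.09. The causes were not tested. Normexp medians were 138 and 688 on EtOH before PHx replicate 3 and CHO 24 h, against 59.9 to 69.9 elsewhere. Spot medians, probe combinations, 1 background value per array and pool means by slide were chosen after seeing the data.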
